A study of Homo sapiens with 9 samples.

Results

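GANAB, the catalytic subunit of glucosidase II, was examined together with 9 further genes of glycoprotein quality control in the endoplasmic reticulum (ER). The genes were PRKCSH, MOGS, UGGT1, UGGT2, CANX, CALR, EDEM1, MAN1B1 and ERLIN2. These 10 genes are a list taken by name from the 26636 genes present in the expression tables of all 9 libraries, and all 10 were among the 13014 genes that passed the filter of a mean of at least 1 FPKM. GANAB and ERLIN2 came to the list because they were higher after knockdown in these same libraries, so their differences are given as a description with no test, and where a count over all genes includes them, that call is no test of theirs. The question asked of the data is whether the partners of GANAB moved with it.

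The libraries are labelled BT549, a breast cancer line of mesenchymal type that is commonly classed as triple negative. That label is set against marker genes below. Cells were transfected with siWFDC21P-1 (3 libraries), siWFDC21P-2 (3 libraries) or the control siRNA siNC (3 libraries, whose labels give the genotype WT). All 9 were grown in the same medium with insulin and serum, received 5 µl of a 10 µM siRNA stock and were harvested after 48 h. The siRNAs target WFDC21P, which the annotation lists as a transcribed pseudogene. No rescue and no library labelled as another cell line was analysed here.

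Newly made glycoproteins carry a glycan with a branch that ends in glucoses. MOGS, glucosidase I, removes the outermost glucose, and glucosidase II, made of GANAB and the regulatory subunit PRKCSH, trims the others in turn. The glycan with a single glucose left is bound by the lectin chaperones calnexin (CANX, in the membrane) and calreticulin (CALR, in the lumen), and a protein that is released but still misfolded is given a glucose back by UGGT1 or its paralogue UGGT2. Proteins that stay misfolded are trimmed by mannosidases, among them MAN1B1, and handed to degradation with the help of EDEM1, while ERLIN2 forms with ERLIN1 an ER membrane complex that serves the degradation of inositol trisphosphate receptors.

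The 9 libraries did not share one expression background, and this was taken into account before any comparison. Clustering on all genes gave 3 sets, within which Pearson's r of log2(FPKM + 1) across genes was 0.928 to 0.986, against 0.658 to 0.744 between sets. Background 1 held siWFDC21P-1 replicates 1 and 2 with siNC replicate 1, background 2 held siWFDC21P-1 replicate 3 with siNC replicate 2, and background 3 held siWFDC21P-2 replicates 1 to 3 with siNC replicate 3. The labelled cell line was checked against its defining markers. VIM, the mesenchymal filament vimentin, stood at 162 to 310.4 FPKM in background 3, at 38.5 to 41.0 in background 1 and at 0.517 to 0.699 in background 2. CDH2, N-cadherin, was at 14.7 to 18.1 FPKM in background 3 and at or below 0.00698 in the other 2 sets. Some mesenchymal markers, though not CDH2, split background 3. For VIM, siWFDC21P-2 replicate 1 was close to its control (309.1 against 310.4 FPKM), whereas replicates 2 and 3 were lower (162.2 and 178.1). ZEB1 was also lower in replicates 2 and 3 (19.58 and 19.43) than in replicate 1 (32.04) or the control (33.09). THY1 was higher in them (90.32 and 110) than in replicate 1 (49.52) or the control (43.57). EPCAM, an epithelial adhesion protein, reached 228 FPKM in siWFDC21P-1 replicate 3 and 209 in siNC replicate 2, and was at or below 0.0731 in the other 7 libraries. The epithelial keratins KRT8 and KRT18 were high in background 1 as well. KRT8 was at 93.4 to 232 FPKM there, at 135 and 293 in background 2 and at 3.99 to 5.44 in background 3. KRT18 was at 80.35 to 151 FPKM in background 1 and at 1.79 to 3.07 in background 3. The epithelial markers CDH1, KRT19, CLDN7, GRHL2 and ELF3 were highest in background 2. Markers of BT549 were thus absent from background 2 and partly absent from background 1, and the line each of these libraries holds was not tested. Each knockdown library is therefore read against the siNC library of its own background, and values without background 2 are given where a result rests on it. Depth was 28.1 to 29.7 M reads in backgrounds 1 and 2 and 16.3 to 17.4 M in background 3, the set that holds all siWFDC21P-2 libraries. The siWFDC21P-2 values therefore rest on siNC replicate 3 as their only control. How well that library matches siWFDC21P-2 replicates 2 and 3, given the split above, was not tested.

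WFDC21P, the target, had 0.0629 and 0.767 FPKM in siWFDC21P-1 replicates 1 and 2, against 3.08 FPKM in siNC replicate 1. These are 2.04% (counting interval 0.244 to 7.58%) and 24.9% (15.4 to 38.9%) of the control. It had 4.13, 3.32 and 2.12 FPKM in siWFDC21P-2 replicates 1 to 3, against 6.87 FPKM in siNC replicate 3, which leaves 60.2%, 48.3% and 30.8%. The library labelled siWFDC21P-1 replicate 3 had 0.227 FPKM from 7 reads, against 0.129 FPKM from 4 reads in siNC replicate 2. In background 2 the control itself held almost no WFDC21P, and the knockdown could not be checked there (176% of the control, counting interval 44.8 to 820%). Every direction drawn from the library labelled siWFDC21P-1 replicate 3 carries that limit. The intervals here and below are exact 95% intervals on recovered reads and cover counting error only.

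GANAB was higher than its control in all 6 knockdown libraries, by 2.23-fold to 3.73-fold. Its level was 92.6 and 91.1 FPKM in siWFDC21P-1 replicates 1 and 2, against 24.9 FPKM in siNC replicate 1. It was 115.9 FPKM in the library labelled siWFDC21P-1 replicate 3, against 37.8 FPKM in siNC replicate 2. It was 192, 201 and 182 FPKM in siWFDC21P-2 replicates 1 to 3, against 82.0 FPKM in siNC replicate 3. The lowest knockdown library, at 91.1 FPKM, lay above the highest siNC library, so the groups did not overlap even across backgrounds, as was the case for 163 of the 13014 tested genes (1.25%), a share from which nothing is read for a gene chosen on this contrast. The folds over the matched control were 3.73 (counting interval 3.59 to 3.87), 3.67 (3.53 to 3.80) and 3.07 (2.97 to 3.16) with siWFDC21P-1. With siWFDC21P-2 they were 2.35 (2.28 to 2.41), 2.45 (2.38 to 2.52) and 2.23 (2.16 to 2.29). All siWFDC21P-1 folds thus exceeded all siWFDC21P-2 folds, but the siRNAs were read against different control libraries.

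The mean of the 6 log2 ratios of GANAB on the log2(FPKM + 1) scale was 1.49 ± 0.32 (SD of the 6 ratios). The ratios share siNC libraries and are not independent, and this SD spans both siRNAs and all backgrounds. By siRNA the mean was 1.76 ± 0.15 (SD) for siWFDC21P-1 and 1.22 ± 0.07 (SD) for siWFDC21P-2. The linear model with the background as a term put siWFDC21P-1 at 1.74 ± 0.16 (SE) and siWFDC21P-2 at 1.22 ± 0.20. Without background 2 the pooled value was 1.51, against 1.53 ± 0.14 (SE) with it. Among the 13014 genes tested, GANAB was the only one at least 2-fold higher in all 6 knockdown libraries (0.00768% of genes), and it ranked 1 by its smallest ratio and 10 by its mean ratio. The list was built on this contrast, so nothing is read from that share. In bulk RNA, more cells that express a gene and more RNA per cell cannot be told apart.

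GANAB lies on chromosome 11 (GRCh38, chr11:62624826-62646726, minus strand), and no other annotated gene overlaps it, so that reads of an antisense neighbour do not enter its value. Its FPKM values fitted whole reads at a transcript length of 5027 bases, against 5030 bases of exon in GENCODE v29. The stretch around its transcription start is shown together with those of both lectins, because the windows of CALR and CANX hold letters of a known stress element. Each line gives 250 bases before to 50 after the start from RefSeq (GRCh38.p14), 5′ to 3′ on the strand of the gene. The regions are chr11:62646564-62646863 (minus strand) for GANAB, chr19:12938359-12938658 (plus strand) for CALR and chr5:179698679-179698978 (plus strand) for CANX, the first of 4 starts that RefSeq lists for CANX. Capitals mark matches, on either strand, to the ER stress response element, spelled CCAAT, then 9 bases of any kind, then CCACG.
GANAB: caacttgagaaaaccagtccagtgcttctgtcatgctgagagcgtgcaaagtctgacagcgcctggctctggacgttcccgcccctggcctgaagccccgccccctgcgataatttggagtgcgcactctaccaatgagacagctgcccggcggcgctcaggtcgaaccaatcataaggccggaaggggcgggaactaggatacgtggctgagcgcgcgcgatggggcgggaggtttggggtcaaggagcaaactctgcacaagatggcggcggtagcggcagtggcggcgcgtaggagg
CALR: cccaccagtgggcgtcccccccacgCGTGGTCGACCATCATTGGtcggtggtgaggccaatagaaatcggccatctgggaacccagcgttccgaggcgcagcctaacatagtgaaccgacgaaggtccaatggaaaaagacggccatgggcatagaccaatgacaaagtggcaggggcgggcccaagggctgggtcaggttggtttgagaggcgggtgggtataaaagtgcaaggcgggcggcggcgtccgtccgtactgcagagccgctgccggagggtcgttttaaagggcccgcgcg
CANX: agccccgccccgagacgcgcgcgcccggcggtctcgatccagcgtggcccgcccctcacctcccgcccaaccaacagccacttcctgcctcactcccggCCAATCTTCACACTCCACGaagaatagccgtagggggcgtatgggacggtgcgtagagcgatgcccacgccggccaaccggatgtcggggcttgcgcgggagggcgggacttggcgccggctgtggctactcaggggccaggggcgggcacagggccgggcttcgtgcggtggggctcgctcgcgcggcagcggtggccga

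The search covered 3 motifs on both strands in 35116 RefSeq promoter windows of 300 bases. The ER stress response element as spelled above was in 27 of them (0.0769%), and 2 of these were the windows of CANX (bases 100 to 118, plus strand of the gene) and CALR (bases 26 to 44, minus strand). A second form of the element, ATTGG, then 1 base of any kind, then CCACG, was in 19 windows (0.0541%) and in none of those of the 8 listed genes that had a window. TGACGTGG, a core bound by XBP1 and ATF6, was in 256 windows (0.729%) and in none of those of the same 8 genes. The motifs do not overlap in the printed sequences. The GANAB window held none of the 3 spellings, which says only that these letters are not in it.

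**Figure D1:**
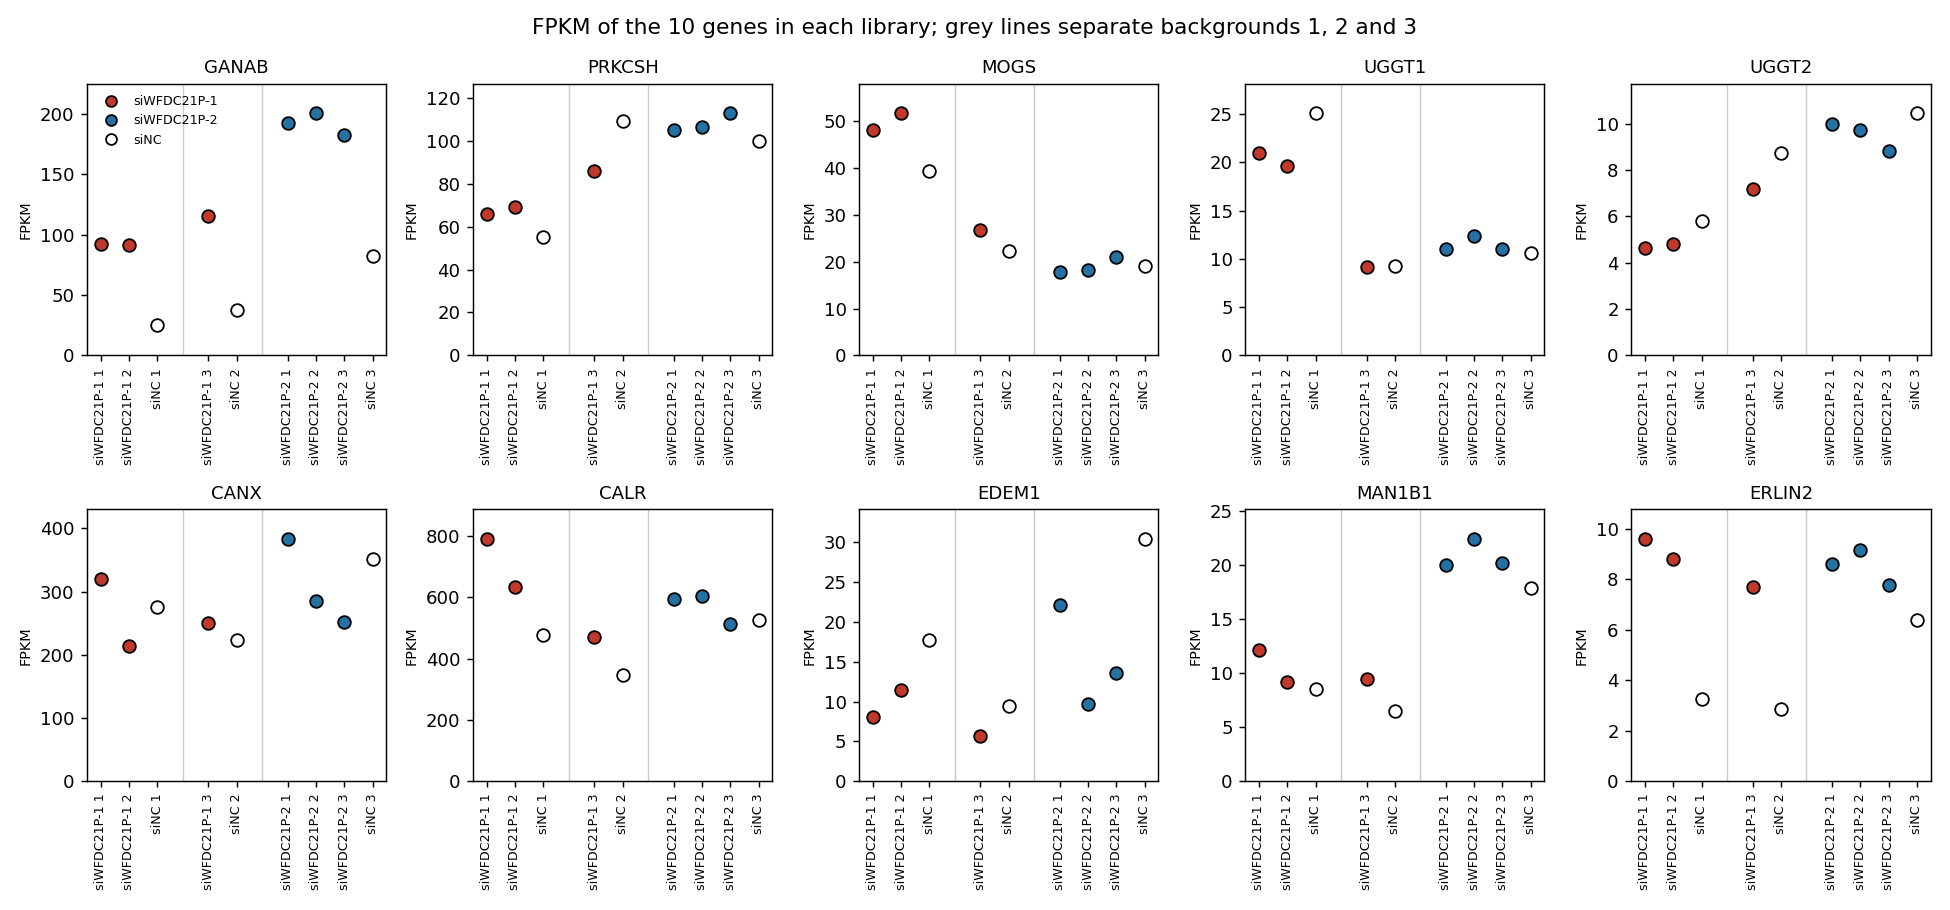
FPKM (y axis, linear from 0) of the 10 genes in each of the 9 libraries, with siWFDC21P-1 in red, siWFDC21P-2 in blue and siNC as open circles, grouped by background. Each point is 1 library. GANAB is 91.1 FPKM or more in every knockdown library and 82.0 FPKM or less in every siNC library, a separation that PRKCSH, in the next panel, does not have.

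PRKCSH, the regulatory subunit that keeps GANAB in the ER, did not follow it. It had 66.1 and 69.0 FPKM in siWFDC21P-1 replicates 1 and 2, against 55.2 FPKM in siNC replicate 1. It had 86.0 FPKM in the library labelled siWFDC21P-1 replicate 3, against 109 FPKM in siNC replicate 2. It had 105 to 113 FPKM in the siWFDC21P-2 libraries, against 100.01 FPKM in siNC replicate 3. PRKCSH was thus above its control in 5 of 6 knockdown libraries and below it in the library of background 2, and the knockdown and siNC ranges overlapped. Over both siRNAs the log2 difference was 0.05 ± 0.14 (SE; limma, adjusted p = 0.879 over all tested genes), with a 95% interval of -0.26 to 0.37. Without background 2 it was 0.19 (adjusted p = 0.61). The upper end of the interval lies below 1.14, the smallest log2 ratio of GANAB in a single library. GANAB was listed for being higher in these ratios, so that gap is a description and no test.

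The ratio of the 2 subunits of glucosidase II is a description, since its numerator was chosen for being higher. The level of GANAB was 1.32 to 1.40 times that of PRKCSH in the siWFDC21P-1 libraries and 1.62 to 1.89 times in the siWFDC21P-2 libraries. In siNC replicates 1 to 3 it was 0.450, 0.347 and 0.820 times the level of PRKCSH. GANAB was the more abundant of the pair in all 6 knockdown libraries and PRKCSH in all 3 siNC libraries, on the FPKM scale, which divides by length. PRKCSH shares part of its locus with CCDC151 on the other strand, and the labels do not say whether strand was used in counting, so its reads cannot be told apart from those of CCDC151.

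MOGS, which acts just before glucosidase II, had 48.1 and 51.7 FPKM in siWFDC21P-1 replicates 1 and 2, against 39.4 FPKM in siNC replicate 1. It had 26.8 FPKM in the library labelled siWFDC21P-1 replicate 3, against 22.3 FPKM in siNC replicate 2. It had 17.9, 18.2 and 21.0 FPKM in the siWFDC21P-2 libraries, against 19.1 FPKM in siNC replicate 3. All 3 siWFDC21P-1 libraries lay above their controls, while those of siWFDC21P-2 fell on both sides. With siWFDC21P-1 the log2 difference was 0.30 ± 0.16 (SE; limma adjusted p = 0.448), and with siWFDC21P-2 it was -0.01 ± 0.20 (adjusted p = 0.996). Neither passed the threshold, and the difference between the siRNAs was 0.31 ± 0.25 (adjusted p = 0.835).

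**Figure D2:**
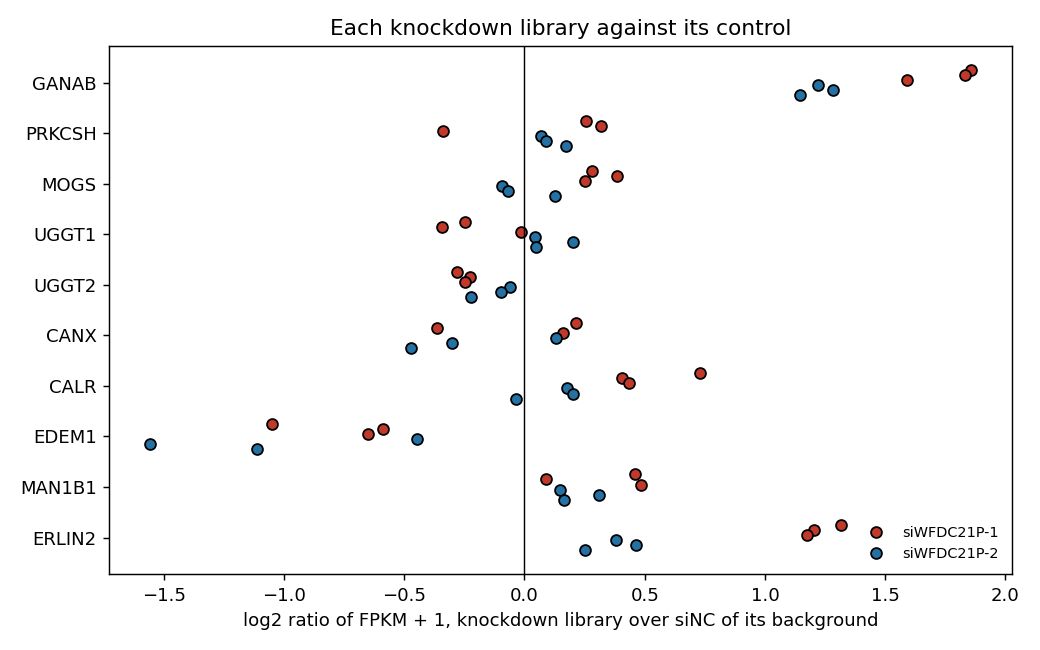
Log2 ratio of FPKM + 1 of each knockdown library over the siNC library of its background (x axis), for the 10 genes (rows), with siWFDC21P-1 in red and siWFDC21P-2 in blue. The 6 points of GANAB lie between 1.14 and 1.86, and no partner other than ERLIN2 has a point above 0.73.

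Of the lectins, CALR was higher in most knockdown libraries and CANX was not. CALR stood at 791 and 632 FPKM in siWFDC21P-1 replicates 1 and 2, against 477 FPKM in siNC replicate 1. It stood at 469 FPKM in the library labelled siWFDC21P-1 replicate 3, against 347 FPKM in siNC replicate 2. It stood at 595, 605 and 514 FPKM in siWFDC21P-2 replicates 1 to 3, against 526 FPKM in siNC replicate 3. CALR was above its control in 5 of 6 libraries, siWFDC21P-2 replicate 3 being the exception. The pooled log2 difference of CALR was 0.36 ± 0.15 (SE; 95% interval 0.0058 to 0.71), and the limma adjusted p was 0.343. The values were 0.51 ± 0.19 for siWFDC21P-1 (adjusted p = 0.302) and 0.12 ± 0.24 for siWFDC21P-2 (adjusted p = 0.899). An antisense transcript overlaps CALR, with the same limit on strand as above.

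CANX had 320.2 and 214 FPKM in siWFDC21P-1 replicates 1 and 2, against 276 FPKM in siNC replicate 1. It had 249.8 FPKM in the library labelled siWFDC21P-1 replicate 3, against 223 FPKM in siNC replicate 2. It had 384, 285 and 253 FPKM in siWFDC21P-2 replicates 1 to 3, against 351 FPKM in siNC replicate 3. CANX lay above its control in 3 knockdown libraries and below it in 3, in each siRNA group on both sides. Its pooled log2 difference was -0.07 ± 0.19 (SE; limma adjusted p = 0.889; 95% interval -0.51 to 0.37).

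Within each library CALR exceeded CANX on the FPKM scale. The level of CALR was 2.47, 2.95 and 1.88 times that of CANX in siWFDC21P-1 replicates 1 to 3 and 1.55, 2.13 and 2.03 times in siWFDC21P-2 replicates 1 to 3, against 1.73, 1.55 and 1.498 times in siNC replicates 1 to 3. The ratio was higher than that of the matched control in all 6 knockdown libraries, but in siWFDC21P-2 replicate 1 by little, and knockdown and siNC ranges overlapped. The ratio was not tested.

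**Figure D3:**
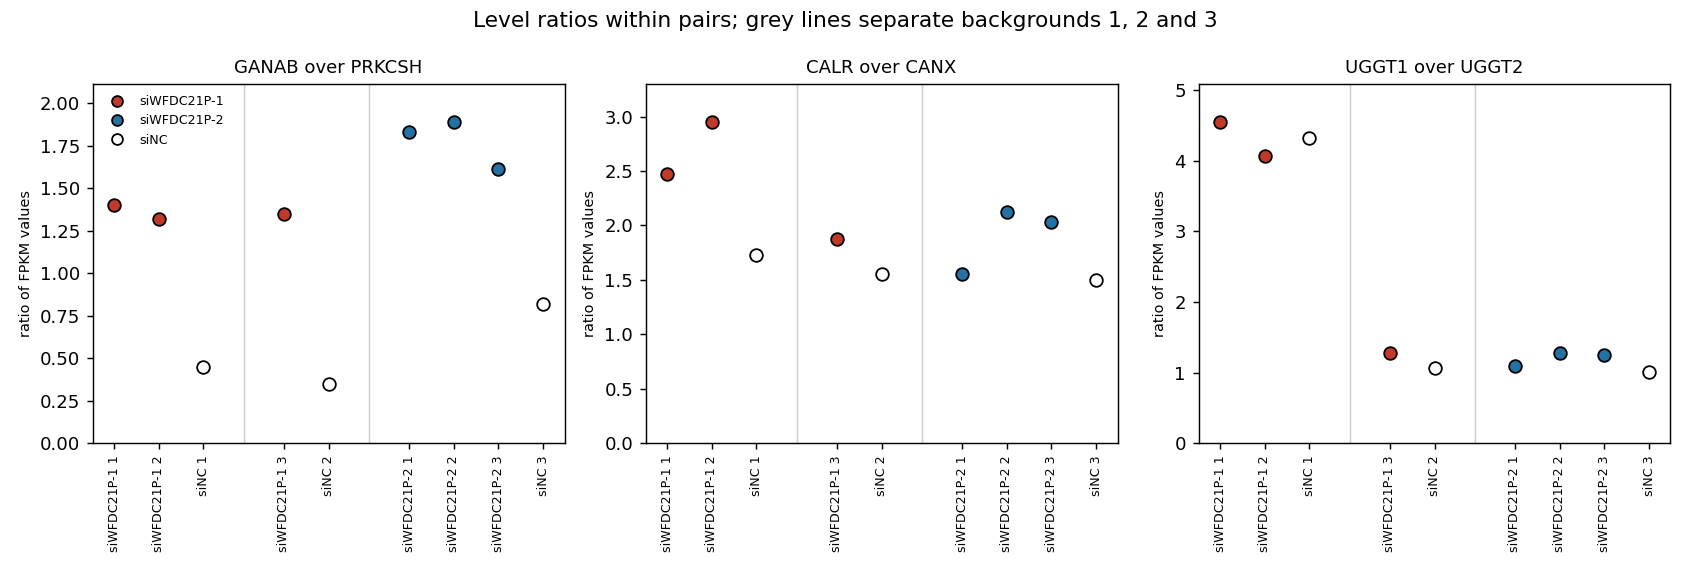
Ratio of FPKM levels within 3 pairs of partners (y axes, linear from 0) in each library, with siWFDC21P-1 in red, siWFDC21P-2 in blue and siNC as open circles, grouped by background. GANAB over PRKCSH is 1.32 or more in the knockdown libraries and 0.820 or less in the siNC libraries, whereas the UGGT1 over UGGT2 ratio is near 4 in background 1 and close to 1 elsewhere, in knockdown and siNC alike.

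UGGT1, the glucosyltransferase that senses misfolding, had 21.0 and 19.6 FPKM in siWFDC21P-1 replicates 1 and 2, against 25.2 FPKM in siNC replicate 1. It had 9.21 FPKM in the library labelled siWFDC21P-1 replicate 3, against 9.31 FPKM in siNC replicate 2. It had 11.0, 12.4 and 11.0 FPKM in the siWFDC21P-2 libraries, against 10.6 FPKM in siNC replicate 3. UGGT1 was thus below control in all 3 siWFDC21P-1 libraries and above it in all 3 siWFDC21P-2 libraries, by margins that within background 2 and for siWFDC21P-2 replicates 1 and 3 lay inside the counting interval. In the model siWFDC21P-1 gave -0.17 ± 0.16 (SE, log2; limma adjusted p = 0.668) and siWFDC21P-2 gave 0.10 ± 0.20 (adjusted p = 0.897).

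UGGT2, its paralogue, was lower than control in all 6 knockdown libraries, by small margins. It had 4.62, 4.82 and 7.20 FPKM in siWFDC21P-1 replicates 1 to 3, against 5.82 FPKM in siNC replicate 1 for the pair in background 1 and 8.73 FPKM in siNC replicate 2 for the library labelled replicate 3. It had 9.99, 9.73 and 8.84 FPKM in the siWFDC21P-2 libraries, against 10.5 FPKM in siNC replicate 3. These are 79.4% to 95.4% of the matched controls. The counting intervals of siWFDC21P-2 replicates 1 and 2 reached the control (88.7 to 102.7% and 86.3 to 100.2%). The pooled log2 difference was -0.20 ± 0.11 (SE; 95% interval -0.46 to 0.056), and the limma adjusted p was 0.44. The ratio of UGGT1 to UGGT2 followed the background more than the siRNA. It was 4.55 and 4.07 in siWFDC21P-1 replicates 1 and 2, against 4.32 in siNC replicate 1, and 1.099 to 1.28 in the other 4 knockdown libraries, against 1.01 and 1.07 in the other siNC libraries.

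EDEM1, which draws misfolded glycoproteins into degradation, had the largest pooled log2 difference of the 8 partners, ERLIN2 not counted, and it was lower. It had 8.04 and 11.5 FPKM in siWFDC21P-1 replicates 1 and 2, against 17.7 FPKM in siNC replicate 1. It had 5.68 FPKM in the library labelled siWFDC21P-1 replicate 3, against 9.48 FPKM in siNC replicate 2. It had 22.1, 9.71 and 13.6 FPKM in siWFDC21P-2 replicates 1 to 3, against 30.5 FPKM in siNC replicate 3. All 6 knockdown libraries were below their controls, at 31.9% to 72.5% of them, although the ranges overlapped across backgrounds. The pooled log2 difference was -0.86 ± 0.24 (SE; 95% interval -1.41 to -0.31), with an unadjusted p of 0.00679 and a limma adjusted p of 0.219. By siRNA it was -0.75 ± 0.32 for siWFDC21P-1 (adjusted p = 0.368) and -1.04 ± 0.40 for siWFDC21P-2 (adjusted p = 0.756), so EDEM1 did not pass the threshold in any of these comparisons.

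The siWFDC21P-2 value of EDEM1 rested on which of its libraries was included. Without siWFDC21P-2 replicate 1 the log2 difference was -1.33 and the limma adjusted p 0.0425, within a range of 0.0425 to 1.0 over the alternatives. In that fit 340 of the 13014 genes (2.61%) were called lower. Some ER stress genes, picked here after their values were seen, were lower in the same libraries of background 3, and others were not. HSPA5, the chaperone BiP, had 1379 FPKM in siWFDC21P-2 replicate 1 and 354 and 284 in replicates 2 and 3, against 1766 FPKM in siNC replicate 3. HERPUD1, a stress-induced component of ER degradation, had 132.8 FPKM in siWFDC21P-2 replicate 1 and 10.1 and 9.29 in replicates 2 and 3, against 145 FPKM in siNC replicate 3. The transcription factor gene DDIT3 had 51.7, 6.89 and 4.73 FPKM in the same 3 libraries, against 53.2 FPKM in siNC replicate 3. MBTPS1 was above its control in all 3, with 17.7, 19.96 and 18.6 FPKM in siWFDC21P-2 replicates 1 to 3, against 14.8 FPKM in siNC replicate 3. ATF6B had 15.3, 25.0 and 24.7 FPKM in those libraries, against 16.8 FPKM in siNC replicate 3, and was higher in replicates 2 and 3 only. None of the 9 stress sensors and factors passed in limma for siWFDC21P-2, and 2 had an unadjusted p under 0.05. For HSPA5, HERPUD1 and DDIT3, replicate 1 of siWFDC21P-2 was close to siNC replicate 3, whereas outside background 3 HERPUD1 was between 10.2 and 18.1 FPKM. GANAB did not show that split within siWFDC21P-2, its 3 folds being 2.23 to 2.45. With siWFDC21P-1, HSPA5 and DDIT3 were above their controls in all 3 libraries. HSPA5 had 620 and 405 FPKM in replicates 1 and 2, against 322 FPKM in siNC replicate 1. It had 175 FPKM in the library labelled replicate 3, against 130 FPKM in siNC replicate 2. HERPUD1 was above its control only in the library labelled siWFDC21P-1 replicate 3. The part of these genes in the EDEM1 value was not tested. An antisense transcript overlaps EDEM1 as well.

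MAN1B1, an alpha-mannosidase of the degradation branch, was higher than control in all 6 knockdown libraries. It had 12.1 and 9.12 FPKM in siWFDC21P-1 replicates 1 and 2, against 8.52 FPKM in siNC replicate 1. It had 9.45 FPKM in the library labelled siWFDC21P-1 replicate 3, against 6.47 FPKM in siNC replicate 2. It had 19.96, 22.4 and 20.2 FPKM in the siWFDC21P-2 libraries, against 17.9 FPKM in siNC replicate 3. The folds ran from 1.07 to 1.46. The pooled log2 difference was 0.30 ± 0.13 (SE; 95% interval -0.0015 to 0.61), with a limma adjusted p of 0.35, so it did not pass the threshold.

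ERLIN2 was the only other gene of the list with folds near those of GANAB, and only with siWFDC21P-1. It had 9.61, 8.81 and 7.69 FPKM in siWFDC21P-1 replicates 1 to 3, against 3.26 FPKM in siNC replicate 1 and 2.85 FPKM in siNC replicate 2. It had 8.60, 9.15 and 7.78 FPKM in the siWFDC21P-2 libraries, against 6.37 FPKM in siNC replicate 3. No knockdown library fell as low as the highest siNC library, which also held for 1.25% of all tested genes. The folds were 2.69 to 2.95 with siWFDC21P-1 and 1.22 to 1.44 with siWFDC21P-2. As with GANAB, the list was built on this contrast, and no test is given. The annotation places an antisense transcript over ERLIN2.

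Counted over the list, 3 of the 10 genes were higher than control in all 6 knockdown libraries, GANAB, MAN1B1 and ERLIN2, where 1408 of the 13014 tested genes were (10.8%). GANAB and ERLIN2 were listed for being so, which leaves MAN1B1 among the 8 partners that were not. UGGT2 and EDEM1 were lower in all 6, as were 1031 tested genes (7.92%). The other 5, PRKCSH, MOGS, UGGT1, CANX and CALR, fell on both sides. In the limma fit, 3 of 13014 genes (0.0231%) had an adjusted p of at most 0.05 for siWFDC21P-1 and 1 for both siRNAs pooled (0.00768%). GANAB is counted in both, but it was chosen for these values, so its call is no test, and the pooled count was 0 under several alternatives given further on. The others for siWFDC21P-1, named after their values were seen, were RPL26L1, which encodes a ribosomal protein paralogue and rose by 1.59 ± 0.15 (log2, SE), and CDKN1A, the p21 cell cycle inhibitor, which fell by 2.42 ± 0.21. None passed in limma for siWFDC21P-2 (0%), where 682 genes had an unadjusted p under 0.05, and limma-voom also called 0. Without siWFDC21P-2 replicate 1 the counts became 153 for siWFDC21P-1, 902 for siWFDC21P-2 and 204 pooled, and leaving out any other single library put them between 0 and 3. None of the 8 partners passed in limma or in limma-voom on recovered reads for either siRNA or for both pooled, and 2 of the 8, CALR and EDEM1, had an unadjusted p under 0.05 in the pooled limma fit, as had 1871 of all tested genes (14.4%). Without background 2 the pooled log2 differences were 0.33 for CALR, 0.24 for MAN1B1, 0.15 for MOGS, -0.09 for UGGT1, -0.15 for CANX, -0.19 for UGGT2 and -0.93 for EDEM1, with limma adjusted p from 0.491 to 0.845. The intervals of MAN1B1, CALR and MOGS in the fit of all 9 libraries still allow a rise of up to 0.61, 0.71 and 0.47 on the log2 scale.

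CALR was the most abundant of the 10 genes in every library, between 347 and 791 FPKM, followed in every library by CANX, between 214 and 384 FPKM. Below these 2 the order changed between libraries. GANAB and PRKCSH came next in most, at medians over the 9 libraries of 92.6 and 100.01 FPKM. MOGS, MAN1B1, EDEM1 and UGGT1 had medians of 22.3, 12.1, 11.5 and 11.0 FPKM, and the ranges of these 4 overlapped. UGGT2 and ERLIN2 were the lowest, with medians of 8.73 and 7.78 FPKM. GANAB varied most among the 10, its highest library being 8.09 times its lowest, against 1.79 times for CANX. That range includes the difference for which GANAB was listed. Among the siNC libraries alone the highest was 3.30 times the lowest for GANAB, 3.22 times for EDEM1 and 1.57 times for CANX.

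The genes whose 6 ratios lay nearest to those of GANAB were not among its partners. Genes were ranked by the root mean square difference of the 6 log2 ratios, over the tested genes with a symbol. The 5 nearest were TOMM22 (0.29), BICD2 (0.33), EXOC3-AS1 (0.35), TCF3 (0.35) and FAM210B (0.36). TOMM22, a mitochondrial import receptor, had 57.9, 43.0 and 35.4 FPKM in siWFDC21P-1 replicates 1 to 3 and 37.1, 53.1 and 50.2 in siWFDC21P-2 replicates 1 to 3, against 14.3, 16.2 and 18.7 FPKM in siNC replicates 1 to 3. TCF3, an E-protein transcription factor, had 21.9 to 33.2 FPKM in the knockdown libraries, against 10.3 to 14.2 FPKM in the siNC libraries. Of the list, ERLIN2 ranked 83 (0.71), CALR 1367, MAN1B1 1922, MOGS 3299 and PRKCSH 4690. UGGT1, CANX, UGGT2 and EDEM1 ranked 8047, 8408, 9703 and 12733.

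The difference of GANAB was not shared by the genes around it. Of 26 other annotated genes within 100 kb, 11 were tested, and their mean log2 ratios over the 6 knockdown libraries had a median of 0.03 and ran from -0.52 for AHNAK to 0.49 for ROM1. Only TTC9C was higher in all 6 (mean 0.30), and only AHNAK, a large scaffold protein, was lower in all 6. INTS5, an Integrator complex subunit whose start is upstream and whose end lies next to the GANAB start, had a mean of 0.41 and was higher in 5 of 6.

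**Figure D4:**
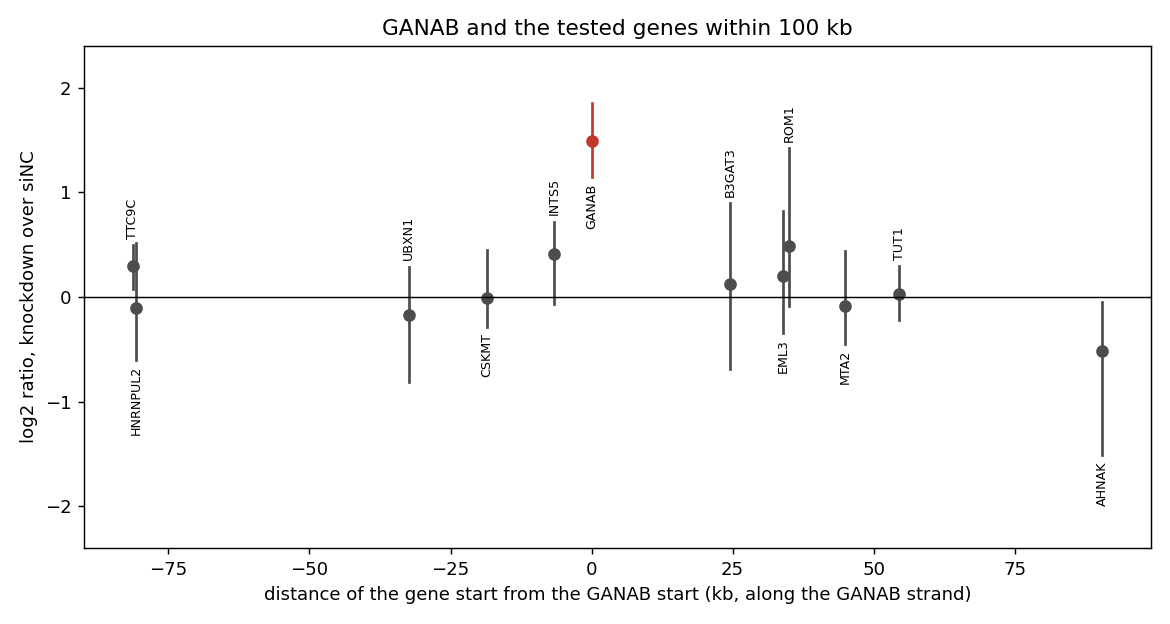
Log2 ratio of FPKM + 1, knockdown over siNC of the same background (y axis), for GANAB (red) and the 11 tested genes within 100 kb (grey), by distance of the gene start from the GANAB start in kb (x axis, negative upstream). Points are means over 6 libraries and lines run from the lowest to the highest library. The GANAB line stays above 1.14, while 9 of the other lines cross 0.

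The wider pathway was followed through 6 lists, 93 of whose genes were tested. None of the 93 passed the limma threshold for siWFDC21P-1, siWFDC21P-2 or both pooled, nor in limma-voom, and 11 had an unadjusted p under 0.05 in the pooled limma fit, against 14.4% of all tested genes. The counts of members higher or lower in all 6 libraries are to be read against 10.8% and 7.92% of all tested genes. Over all tested genes the median of the mean log2 ratio was 0.03.

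Genes that build the glycan precursor had a median of 0.04, with 2 of 21 tested members higher and 1 lower in all 6 libraries (9.52% and 4.76%, against 10.8% and 7.92% of all tested genes). The largest mean was that of DPM3, which tethers dolichol-phosphate mannose synthase, at 0.60, and the smallest that of ALG9, a mannosyltransferase, at -0.32. SRD5A3, a reductase of dolichol synthesis, averaged -0.25 and was below control in all 6. The oligosaccharyltransferase, which moves the glycan onto the protein, had a median of -0.01, with 1 of 12 members higher and 2 lower in all 6 (8.33% and 16.7%, against the same 10.8% and 7.92%). OSTC, the higher one, had 57.6, 64.9 and 48.1 FPKM in siWFDC21P-1 replicates 1 to 3 and 41.7, 79.7 and 81.0 in siWFDC21P-2 replicates 1 to 3, against 36.6, 46.2 and 37.1 FPKM in siNC replicates 1 to 3. RPN1 and MAGT1 were below control in all 6, with means of -0.39 and -0.33.

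Chaperones and oxidoreductases of the ER had a median of -0.08, with 2 of 19 higher and 1 lower in all 6 (10.5% and 5.26%, against 10.8% and 7.92%). The median of their log2 differences was 0.38 for siWFDC21P-1 and -0.46 for siWFDC21P-2, against 0.03 and 0.02 over all tested genes. The siRNAs were read against different controls, and none of the 19 passed in limma or limma-voom for the difference between them. In limma 4 of the 19 had an unadjusted p under 0.05 for it, as had 703 of the 13014 tested genes. Without siWFDC21P-2 replicate 1, HSPA5 passed for that difference, where 182 of all tested genes did. In that fit 9 of the 19 had an unadjusted p under 0.05, as had 2642 of all tested genes. ERO1A, which reoxidises disulfide isomerases, had 11.3 to 19.8 FPKM in the knockdown libraries, against 4.57 to 10.6 FPKM in the siNC libraries, and was higher in all 6. DNAJB9, a BiP cochaperone, was lower in all 6, with a mean log2 ratio of -1.11. It had 31.4, 6.19 and 8.72 FPKM in siWFDC21P-2 replicates 1 to 3, against 37.6 FPKM in siNC replicate 3, the same split within siWFDC21P-2 as for HSPA5 and HERPUD1. The other mannosidases and degradation genes had a median of -0.08, and 0 of 27 were higher and 4 lower in all 6 (0% and 14.8%, against 10.8% and 7.92%). In this list MAN1A1, a Golgi mannosidase, averaged 0.37 and HERPUD1 -1.32. UBE2J1, a ubiquitin-conjugating enzyme of the ER membrane, averaged -0.82 and was below control in 5 of 6.

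The 5 cargo receptors of glycoproteins had a median of 0.24, and 3 of them were higher in all 6 libraries, where 10.8% of all tested genes were. Of these LMAN2L averaged 0.51 and SURF4 0.33, while LMAN1, the lectin ERGIC-53, averaged -0.21. The 9 stress sensors and factors had a median of -0.38, with 1 higher and 3 lower in all 6 (11.1% and 33.3%, against 10.8% and 7.92%). MBTPS1, the protease that cleaves ATF6, had 17.7 to 31.5 FPKM in the knockdown libraries, against 14.8 to 17.2 FPKM in the siNC libraries. ERN1, the sensor IRE1, had 0.621 to 1.96 FPKM in the knockdown libraries, against 1.52 to 2.89 FPKM in the siNC libraries, and was below its control in all 6. Without siWFDC21P-2 replicate 1, 15 of the 93 genes passed for siWFDC21P-2, 5 higher and 10 lower, where 4.32% and 2.61% of all tested genes did. The higher ones were ALG1, ALG8, DOLK, OSTC and LMAN2L, and those lower included HSPA5, HYOU1, DNAJB9, HERPUD1, SEL1L, SYVN1, XBP1 and DDIT3, most of them genes known to be induced by ER stress. For siWFDC21P-1 minus siWFDC21P-2, 4 of the 93 passed in that fit, DDIT3, DERL3, HERPUD1 and HSPA5, where 182 of the 13014 tested genes did.

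**Figure D5:**
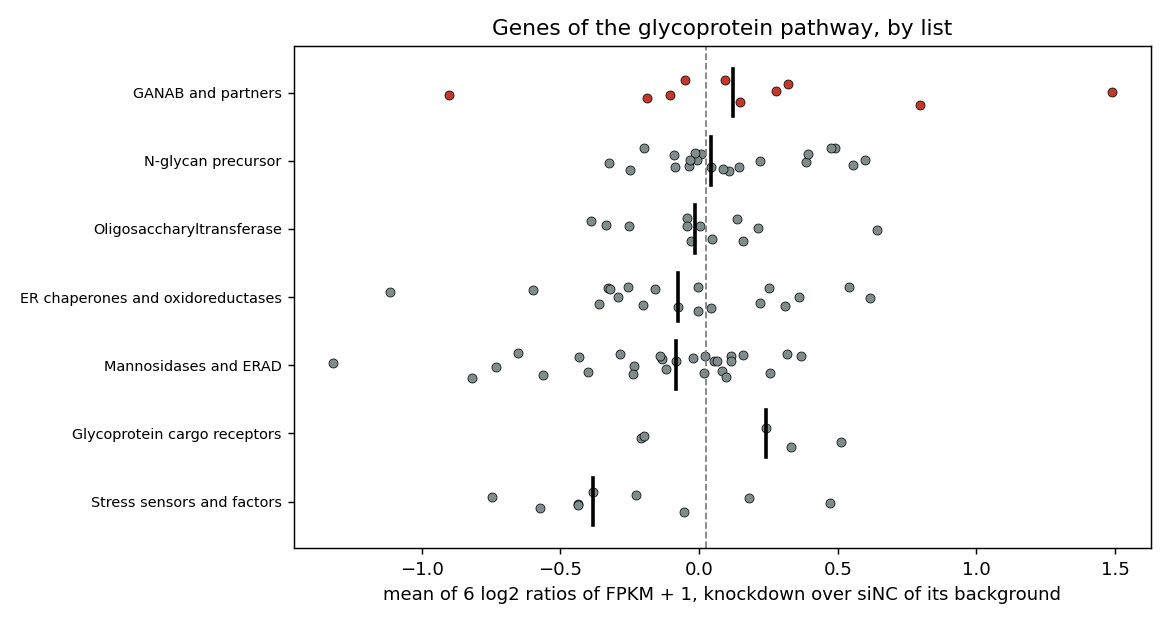
Mean of the 6 log2 ratios of FPKM + 1, knockdown library over siNC of its background (x axis), for the 10 genes of the list (red) and the tested members of 6 pathway lists (grey, rows). Points are genes with vertical scatter only for legibility, black bars are medians and the dashed line is the median of 0.03 over all tested genes. GANAB, at 1.49, is to the right of every other gene drawn, and HERPUD1, at -1.32, is the leftmost.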

How the data were processed

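RNA sequencing libraries labelled as BT549 cells were compared, 3 each for siWFDC21P-1, siWFDC21P-2 and siNC. The authors deposited 1 FPKM value per gene and library. The submitters' processing notes name HTSeq 0.6.0, HISAT2 2.1.0 and Bowtie2 2.2.3, and hg38 as the build, with no role given to each. Whether counting used strand is not given in the sources used here. Headers came in 2 styles, with 34377 genes (siNC replicates 1 and 2, siWFDC21P-1) and 29104 genes (siNC replicate 3, siWFDC21P-2), and 26636 were in all 9 tables, 26274 of them with a symbol.

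Among values worth under 50 reads, 95.1 to 96.1% per library were whole multiples of 1 read to within 0.02. Whole reads were recovered for 26124 genes (98.1%), which gave the depths and the exact counting intervals; PCR copies are not independent molecules. The 13014 genes whose mean reached 1 FPKM were fitted on the log2(FPKM + 1) scale by limma (version 3.58.1 under R 4.3.3; empirical Bayes with an intensity trend), with siRNA and expression background as terms, and Benjamini-Hochberg adjustment over all tested genes. Fold changes on that scale understate those of low genes. Backgrounds are average-linkage clusters on 1 minus Pearson's r, split at a height of 0.15. The labels do not say that replicates are separate transfections, so p-values measure the spread between libraries, which may be technical. With background as a term and 1 siNC library in each background, no spread between siNC libraries of the same background enters them.

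The named genes are the 10 of the list, the target, cell markers and up to 4 per pathway list (the 2 highest and 2 lowest mean ratios). The 5 genes with a symbol nearest to GANAB and the tested genes within 100 kb of it are named too. Those beyond this rule are marked or were named after a call in a single alternative. Members, lists, motifs, backgrounds and tests were all chosen with earlier results of these data known. Coordinates are GENCODE v29. RefSeq promoter windows were found for 8 of the 10 genes. Alternatives covered the background term, replicate block, pseudocount, filter, scaling, test and each library.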

Additional observations from a re-analysis of the deposited data

Results flagged for a closer look

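UGGT1 was on opposite sides of the control with the 2 siRNAs. All 3 siWFDC21P-1 libraries were below their controls (98.9%, 83.6% and 78.0% of them, the first being the library labelled replicate 3), and all 3 siWFDC21P-2 libraries were above (103%, 117% and 104%). The difference between the siRNA effects, siWFDC21P-1 minus siWFDC21P-2, was -0.27 ± 0.25 on the log2 scale (SE), with a limma adjusted p of 0.85 over all tested genes, so it did not pass the threshold. Its sign also depended on the background term, and without it the difference was 0.42. The siRNAs were read against different siNC libraries. Leaving out single libraries put the difference between -0.39 and -0.11, without a call.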

How the results depend on the processing

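Of the values of the 10 genes under the alternatives, 732 kept their direction and side of the threshold or moved by less than 1 SD, 38 turned direction, 9 of GANAB or ERLIN2 moved and 1, that of EDEM1 given above, passed. The alternatives are single changes, none of the values that turned passed the threshold, and the causes were not tested. GANAB stayed at 1.123 or more for each siRNA and at 1.37 or more pooled under all alternatives run. Many of these estimates, for GANAB and among the 732, could not move by design. With the background as a term, the estimate of an siRNA does not depend on libraries of other backgrounds, and a filter changes no estimate. GANAB thus kept 1.216 with siWFDC21P-2 when any siWFDC21P-1 library was left out. It kept 1.736 with siWFDC21P-1 when any siWFDC21P-2 library was. Such unchanged values add no support.

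With neither background nor style in the model, the siWFDC21P-1 value was -0.20 for PRKCSH, 0.19 for UGGT1 and -0.11 for CANX. The siWFDC21P-2 value was then -0.23 for UGGT1, 0.20 for UGGT2 and 0.12 for CANX, and the pooled value of CANX 0.0026. The difference siWFDC21P-1 minus siWFDC21P-2 became -0.94 for GANAB, 0.42 for UGGT1, -0.23 for CANX, -0.75 for EDEM1 and -0.97 for MAN1B1. With the header style in place of the background, the siWFDC21P-1 and pooled values were -0.085 and -0.0095 for PRKCSH and 0.022 and 0.052 for UGGT1. Median-of-ratios scaling gave -0.044 for PRKCSH and -0.036 for CANX with siWFDC21P-1, and quantile normalization 0.052 with siWFDC21P-2 and 0.078 pooled for CANX. Without background 2, CANX was -0.075 with siWFDC21P-1 and the difference between siRNAs 0.18 for PRKCSH.

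Leaving out single libraries put PRKCSH between -0.34 and 0.29 with siWFDC21P-1, between -0.070 and 0.19 pooled and between -0.45 and 0.18 for the difference between siRNAs. MOGS ran from -0.079 to 0.031 with siWFDC21P-2 and UGGT1 from -0.17 to 0.054 pooled. CANX ran from -0.10 to 0.19 with siWFDC21P-1 and from -0.15 to 0.026 pooled. Without siNC replicate 3 neither siWFDC21P-2 nor the difference between siRNAs can be estimated. The pooled value is then that of siWFDC21P-1 alone, and it gave the pooled ends of -0.17 for UGGT1 and 0.026 for CANX.

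The genes called ranged, over single libraries left out, from 0 to 153 for siWFDC21P-1, from 0 to 902 for siWFDC21P-2, from 0 to 204 pooled and from 0 to 182 for the difference, the highest always without siWFDC21P-2 replicate 1. For siWFDC21P-1 the count was 0 with the header style, with no term, with no filter and with median-of-ratios scaling, 16 with quantile normalization and 26 with a mean of at least 5 FPKM or limma-voom. Pooled it was 0 with the header style, no term, no filter, median-of-ratios scaling or without background 2, and 2 at a pseudocount of 0.1. With no filter it was 17 for siWFDC21P-2 and 7 for the difference. Genes higher in all knockdown libraries numbered 1509 to 2136 and genes lower in all 1105 to 1517 when 1 knockdown library was left out, and the lower ones 1583 with no filter and 620 at a mean of at least 5 FPKM. Among the 10 genes the members of both groups stayed the same, except that PRKCSH joined the higher ones without siWFDC21P-1 replicate 3 and CALR without siWFDC21P-2 replicate 3.

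Same-numbered libraries of different groups deviated together at r of -0.683 to 0.667, above 0.1 in 2 of 9 pairs. The deviations were taken from group means and so also carry the differences between backgrounds. They cannot tell whether the numbers pair the samples. With the replicate block the counts were 0 for siWFDC21P-1, 0 for siWFDC21P-2, 0 pooled and 0 for the difference, GANAB was 1.53 pooled, MOGS was 0.091 and CALR -0.043 with siWFDC21P-2, and no partner passed. Counting error of the 10 genes was small at this depth, although intervals of MOGS, UGGT1 and UGGT2 reached the control in some libraries. Precision of the 10 genes is limited by having 1 siNC library per background.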

Other observations

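3 further genes ran close to GANAB over the 6 knockdown libraries, and none belongs to the glycoprotein pathway lists. BICD2, a dynein adaptor, had 16.7, 16.0 and 10.4 FPKM in siWFDC21P-1 replicates 1 to 3 and 16.8, 15.4 and 17.8 FPKM in siWFDC21P-2 replicates 1 to 3, against 4.66, 4.88 and 7.63 FPKM in siNC replicates 1 to 3. FAM210B, a mitochondrial protein, had 9.10, 5.66 and 11.0 FPKM with siWFDC21P-1 and 17.4, 24.1 and 18.5 FPKM with siWFDC21P-2, against 2.09, 3.62 and 9.23 FPKM with siNC. EXOC3-AS1, an antisense transcript, had 2.77 to 7.55 FPKM in the knockdown libraries, against 0.956 to 1.55 FPKM in the siNC libraries. They were chosen for likeness to GANAB in the same ratios, so their differences are a description with no test.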
